A study of Mus musculus with 9 samples.

Results

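The genes Kmt2a, Mllt3, Mllt1, Mllt10, Dot1l, Men1, Psip1, Aff1 and Aff4 encode parts of the MLL fusion machinery and were read in mouse leukemia cells driven by the fusion MLL-AF9. They were chosen by name, with earlier results of these data known, and all 9 were found among the 55536 genes of the deposited table. RNA was sequenced from 9 libraries in 3 groups of 3, which the sample titles call WT c-kit-, WT c-kit+ and IRF7-/- c-kit+. In all 3 groups, c-kit+ cells of WT or IRF7-/- mice had been infected with an MSCV retrovirus carrying MLL-AF9 and GFP, and GFP+ leukemia cells were transplanted without irradiation into C57BL/6J mice aged 6 to 8 weeks. Leukemia cells were sorted from bone marrow at day 18 by surface c-kit, the receptor encoded by Kit that marks immature blood cells. Every group therefore carries the fusion, and none of the libraries analysed here comes from cells without it or from c-kit- cells of the IRF7-/- leukemia. The genotype labels read control or IRF7-/-, each with GFP overexpression. They do not say whether the 3 libraries of a group came from separate mice, so p-values measure the spread between these libraries, which may be technical.

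KMT2A, also called MLL, is a histone H3 methyltransferase that keeps developmental genes such as the Hoxa cluster active in blood progenitors. In leukemia its N-terminal part is fused to a partner, and MLLT3 (AF9), MLLT1 (ENL), MLLT10 (AF10), AFF1 (AF4) and AFF4 are such partners. Menin, from Men1, and LEDGF, from Psip1, hold MLL on chromatin. AF9 and its relative ENL bind either the AFF scaffolds, which carry the kinase P-TEFb in the super elongation complex and release paused RNA polymerase II, or the methyltransferase DOT1L together with AF10. The genes are described in that order of roles, in TPM, the transcript abundance scaled by gene length and library total, so that levels can be compared between genes. A TPM value carries no read depth, and its precision can be read only from how the 3 libraries of a group scatter.

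Kit followed the sorting, at 0.52, 1.19 and 3.03 TPM in WT c-kit-, between 50.7 and 58.5 TPM in WT c-kit+, and between 70.3 and 85.7 TPM in IRF7-/- c-kit+. Irf7, the gene named in the genotype, did not follow its label: it was 3.36 to 5.31 TPM in WT c-kit+ but 5.97 to 12.8 TPM with the IRF7-/- label, against 22.3 to 32.3 TPM in WT c-kit-. The gene-level value also takes in exons outside the replaced part of the gene, so it does not settle the genotype. The IRF7-/- c-kit+ libraries are called the labelled libraries below, since every direction taken from them depends on that label. Libraries of a group correlated at Pearson's r of 0.973 to 0.984 on log2(TPM + 1) and those of different groups at 0.851 to 0.932 over 13962 genes. Myeloid granule genes were present in all libraries and differed between the groups. The sum of 5 progenitor granule genes (such as Mpo and Elane) was 2895 to 3452 TPM in WT c-kit-, 14203 to 19536 TPM in WT c-kit+ and 17641 to 23397 TPM in the labelled libraries. The sum of 12 myeloid maturation genes (such as S100a8 and Ltf) was 7548 to 31922, 57690 to 112254 and 2289 to 3132 TPM in the same order, and within WT c-kit- it was highest in replicate 3. These sums rest on their most abundant genes and not every gene of a list followed them. From WT c-kit- to WT c-kit+ the mean of Mmp8 went from 74.6 to 4.68 TPM, of Csf1r from 399 to 50.9 TPM, of Fcgr3 from 245 to 152 TPM and of Cybb from 348 to 280 TPM, and Fcgr3 was highest, at 357 TPM, in the labelled libraries, where the sum was lowest. Mpo (4855 to 3724 TPM) and Ms4a3 (662 to 336 TPM) had lower means in the labelled libraries than in WT c-kit+, against the progenitor sum. Over the 9 libraries, T cell markers summed to at most 4.63 TPM (5 genes), B cell markers to 26.4 to 38.1 TPM (5 genes, of which only Cd79b reached 1 TPM throughout), and erythroid markers to at most 11.7 TPM (7 genes). Endothelial markers (4 genes, of which only Pecam1 reached 1 TPM throughout) summed to 37.9 to 47.5 TPM in WT c-kit+ and to 83.8 to 106 TPM in the other groups, and stromal markers (4 genes) to 18.3 to 31.3 TPM against 47.2 to 67.9 TPM. Lepr made up most of the stromal sum, with means of 48.7, 22.5 and 41.2 TPM in WT c-kit-, WT c-kit+ and the labelled libraries. Pdgfrb had means of 2.54, 1.24 and 13.6 TPM in the same order, and no value of Col1a1 or Cxcl12 exceeded 1.6 TPM. The part of these differences in the results below was not tested.

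Kmt2a, Mllt3 and Aff1 were higher in both c-kit+ groups than in WT c-kit- and had the largest rises among the 9 genes. Mllt1 was also higher in both c-kit+ groups, by less. Between the c-kit+ groups Aff1 fell, while Kmt2a and Mllt3 passed no test. The 150 bases before the starts of Kmt2a, Mllt3 and Aff1 are shown for the size of their rises against WT c-kit-. They are from RefSeq promoters on GRCm38.p6, 5′ to 3′ on the strand of the gene, with CG dinucleotides in capitals. The windows are chr9:44881290-44881439 on the minus strand for Kmt2a, chr4:88033408-88033557 on the minus strand for Mllt3 and chr5:103754423-103754572 on the plus strand for Aff1. The Aff1 window lies inside the span of the gene, where its principal transcript starts, and not before the first base of the gene. RefSeq gave 2 promoters each for Aff1 and Mllt3, of which 1 is shown.
Kmt2a: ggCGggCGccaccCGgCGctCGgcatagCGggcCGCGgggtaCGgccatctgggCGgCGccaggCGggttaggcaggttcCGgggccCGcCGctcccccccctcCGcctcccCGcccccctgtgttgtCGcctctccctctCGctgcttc
Mllt3: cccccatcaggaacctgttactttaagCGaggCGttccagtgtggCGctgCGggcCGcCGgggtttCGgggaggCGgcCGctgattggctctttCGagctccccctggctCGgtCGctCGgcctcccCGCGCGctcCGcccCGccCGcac
Aff1: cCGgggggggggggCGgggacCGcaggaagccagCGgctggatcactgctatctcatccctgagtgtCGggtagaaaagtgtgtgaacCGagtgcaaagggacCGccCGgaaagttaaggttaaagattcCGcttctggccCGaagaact
The capitals are dense in all 3 stretches, with 19 CG in the Kmt2a and Mllt3 stretches and 10 in that of Aff1. Promoters of 300 bases (250 before the start and 50 after) were found for 8 of the 9 genes, not for Psip1. They held between 7 CG (Mllt10) and 49 CG (Dot1l), against a median of 7 over 32851 RefSeq promoters of that length (quartiles 3 and 20). The GC box GGGCGG was found on either strand in the promoters of Kmt2a, Mllt3, Mllt1, Dot1l, Men1 and Aff1, and in 35.7% of all promoters. This motif contains a CG, so it is not independent of the CG count. CCAAT was found in those of Mllt3, Mllt1, Mllt10 and Men1 (37.4% of all promoters), and CCGGAA, the core bound by ETS factors, in those of Kmt2a, Mllt1, Dot1l and Aff1 (14.9% of all promoters). CCGGAA also contains a CG, so it too is tied to the CG count. Genes that rose and genes that did not share these letters, and a match is a description of the window only.

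All 9 genes were expressed in every library, between 9.84 TPM (Aff4 in 1 of the labelled libraries) and 102 TPM (Kmt2a in another). In WT c-kit- the order of the means was Mllt10, Psip1, Kmt2a, Mllt3, Men1, Aff1, Mllt1, Dot1l and Aff4. Each neighbour overlapped the next in its libraries except Dot1l and Aff4, and Aff4 was the lowest, at 19.0 ± 1.57 TPM (SD, n = 3). In WT c-kit+ Kmt2a came first, at 69.8 ± 7.43 TPM (SD, n = 3), followed by Mllt3, Aff1 and Mllt10, whose libraries overlapped from neighbour to neighbour. Psip1 and Mllt1 followed, each apart from its neighbours, then Dot1l and Men1, which overlapped, and Aff4. In the labelled libraries the order was Kmt2a, Mllt3, Mllt10, Psip1, Aff1, Mllt1, Dot1l, Men1 and Aff4. There Kmt2a, Mllt3, Men1 and Aff4 did not overlap their neighbours, while Mllt10, Psip1 and Aff1 overlapped from neighbour to neighbour, as did Mllt1 and Dot1l. Aff4 was thus the lowest of the 9 genes in each group, and its mean exceeded that of 52.6%, 50.9% and 42.2% of the genes with at least 1 TPM in 3 or more of the 9 libraries.

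**Figure D1:**
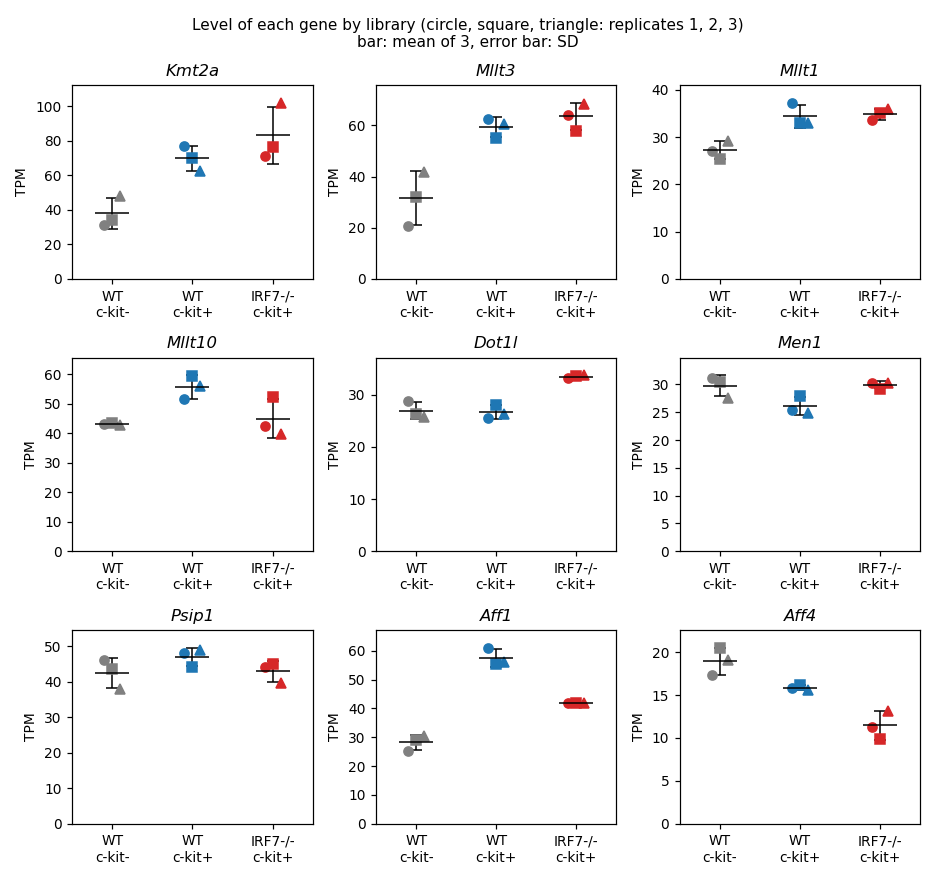
TPM (vertical axes, each from 0) of the 9 genes in the 3 groups (horizontal axes), with 1 point per library, a bar at the mean of 3 and error bars of 1 SD. Kmt2a, Mllt3, Mllt1 and Aff1 are lower in each WT c-kit- library than in any c-kit+ library, and Aff4 is lowest in the 3 libraries labelled IRF7-/- c-kit+.

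WT c-kit+ and WT c-kit- are cells of the WT leukemia sorted with and without surface c-kit. The labels do not say whether both came from the same mice. Between WT c-kit+ and WT c-kit-, 5 of the 9 genes rose and none fell (limma on log2(TPM + 1), Benjamini-Hochberg adjusted p under 0.05 over all 13261 genes tested). Over all genes tested, 14.0% were called higher and 27.6% lower. The median log2 fold change was 0.33 for the 9 genes and −0.082 for all genes, while the median size of the change, regardless of sign, was 0.33 and 0.31. Only Aff1 also passed a log2 fold change of 1 in size, as did 14.4% of all genes. Without WT c-kit+ replicate 1, 3 of the 9 genes were called and none passed that size, nor did any without WT c-kit- replicate 1, while 3 passed it without WT c-kit- replicate 3 or after median centring. Libraries of the groups did not overlap for 6 of the 9 genes and for 54.4% of all genes, so non-overlap was about as common among the 9 as elsewhere. Exact permutation tests of single genes with 3 libraries against 3 cannot go below p = 0.1, and each of those 6 genes reached that value.

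The labelled libraries and WT c-kit+ are c-kit+ cells of leukemias made separately from IRF7-/- and WT mice. The genotype label and the leukemia therefore cannot be told apart. Between these groups Dot1l rose and Aff1 and Aff4 fell, and no gene of the 9 passed a log2 fold change of 1. Under quantile normalization 5 were called, with falls of Mllt10 (limma adjusted p = 0.0241) and Psip1 (0.0448) added, and with all 9 libraries in 1 fit 5 were called, with a fall of Mllt10 (0.0302) and a rise of Men1 (0.0481) added. Over the 13238 genes tested, 31.9% were called higher, 16.1% lower and 11.7% past both thresholds. The median log2 fold change was 0.019 for the 9 genes and 0.12 for all genes, with median sizes of 0.24 and 0.32. Libraries did not overlap for 4 of the 9 genes and for 59.1% of all genes. Between the labelled libraries and WT c-kit-, which differ in both the genotype label and c-kit, 5 of the 9 genes rose and Aff4 fell, against 30.7% of 13510 genes called higher and 28.7% lower. Kmt2a and Mllt3 passed a log2 fold change of 1 as well, as did 20.3% of all genes, but neither did so without WT c-kit- replicate 1 or labelled replicate 3. Libraries did not overlap for 6 of the 9 genes and 67.1% of all genes. The 3 comparisons share libraries pair by pair and are not independent of each other.

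**Figure D2:**
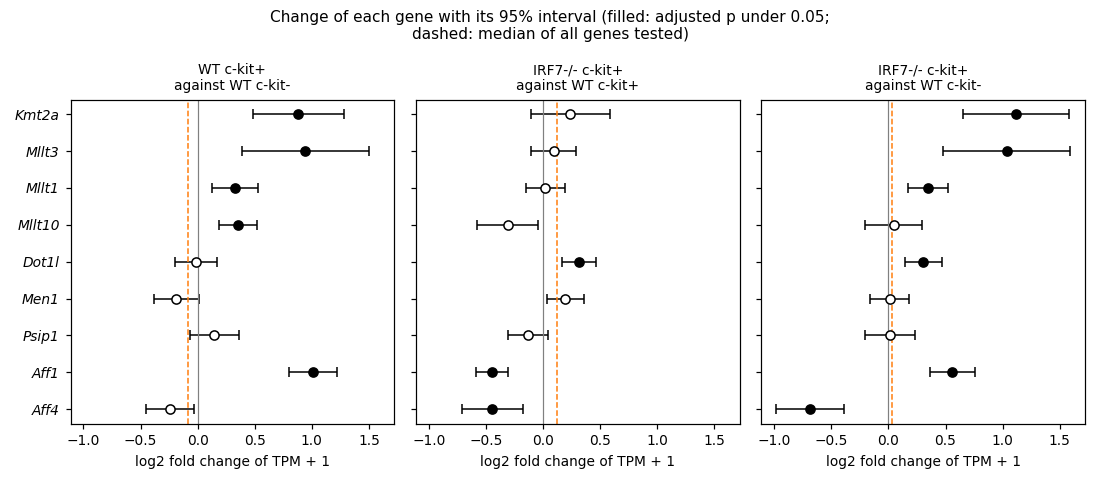
Log2 fold change of TPM + 1 (horizontal axes) of the 9 genes in the 3 comparisons, with 95% intervals from limma; filled points have an adjusted p under 0.05, and the dashed line is the median of all genes tested (−0.082, 0.12 and 0.030). Kmt2a, Mllt3 and Aff1 are farthest to the right in the left panel, and Aff1 and Aff4 fall in the middle panel.

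Kmt2a, on chromosome 9 (44803355 to 44881296, minus strand, GRCm38), had a TPM of 31.3, 34.5 and 48.3 in WT c-kit-, 77.3, 69.9 and 62.4 in WT c-kit+, and 71.3, 76.5 and 102 in the labelled libraries. The c-kit+ groups both lay above all WT c-kit- libraries and overlapped each other. Its log2 fold change was 0.88 (SE 0.17, limma adjusted p = 0.00585) in WT c-kit+ and 1.12 (SE 0.19, limma adjusted p = 0.00257) in the labelled libraries against WT c-kit-. Between the c-kit+ groups the difference was 0.24 (95% interval −0.11 to 0.58, limma adjusted p = 0.218). Mllt3, the AF9 partner itself, on chromosome 4 (87769925 to 88033364, minus strand), had 20.7, 32.1 and 41.9 TPM in WT c-kit-, 62.5, 54.9 and 60.7 TPM in WT c-kit+, while the labelled libraries had 64.2, 57.8 and 68.4 TPM. The WT c-kit- libraries were spread more widely than the gap that separated them from WT c-kit+. Mllt3 rose by a log2 fold change of 0.94 (SE 0.23, limma adjusted p = 0.0174) in WT c-kit+ and by 1.04 (SE 0.23, limma adjusted p = 0.00813) in the labelled libraries, and the difference between the c-kit+ groups was 0.094 (95% interval −0.10 to 0.29, limma adjusted p = 0.385). The first of these rises did not pass without WT c-kit+ replicate 1 (limma adjusted p = 0.0556) or replicate 3 (0.0507). In WT c-kit- replicate 3 was the highest for Kmt2a, Mllt3, Aff1 and Kit alike. Whether more c-kit+ cells or more RNA per cell lay behind a bulk level cannot be told apart. Transcripts of the MLL-AF9 transgene that match mouse Kmt2a or Mllt3 cannot be told apart from those of the endogenous genes in a table of gene totals. Kmt2a overlaps AC061963.1 on the other strand, and the library kit does not mark strand.

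Over the 9 libraries, the genes whose log2(TPM + 1) was most like that of Kmt2a among 13961 genes were 4930578N18Rik (r = 0.983), Ttc41 (0.980) and Naa80 (0.973). For Mllt3 they were Fhl3 (r = 0.974), AC073683.1 (0.974) and Gm16104 (0.973). Kmt2a itself correlated with Mllt1 at 0.950 and with Mllt3 at 0.940, below these leading genes, and with Aff4 at −0.68. The 9 points fall in 3 groups, so these values mostly describe the order of the groups and are given with no test.

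Men1 and Psip1, whose products tether MLL to chromatin, moved less than Kmt2a and passed no test in any of the 3 comparisons. Men1, on chromosome 19 (6334979 to 6340891, plus strand), had 31.2, 30.5 and 27.7 TPM in WT c-kit-, 25.5, 27.9 and 24.9 TPM in WT c-kit+, while the labelled libraries had 30.3, 29.3 and 30.3 TPM. Its labelled libraries lay above every WT c-kit+ library, with a log2 difference of 0.20 (95% interval 0.032 to 0.36, limma adjusted p = 0.0525), close to the 0.12 median of all genes. That p ran to either side of the threshold with the setting, as low as 0.0246 without WT c-kit+ replicate 2. Psip1, on chromosome 4 (83455680 to 83486459, minus strand), had 46.1, 43.5 and 38.0 TPM in WT c-kit-, 48.1, 44.2 and 48.9 TPM in WT c-kit+, while the labelled libraries had 44.3, 44.9 and 39.6 TPM, and each pair of groups overlapped. Its log2 difference between WT c-kit+ and WT c-kit- was 0.15 (95% interval −0.066 to 0.36, limma adjusted p = 0.235), and 0.30 (limma adjusted p = 0.0326) after the median of each library was set equal. Between the c-kit+ groups it was −0.13 (95% interval −0.31 to 0.045, limma adjusted p = 0.185), and −0.23 (limma adjusted p = 0.0448) under quantile normalization. Psip1 overlaps Snapc3 on the other strand.

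Mllt1, which encodes ENL, the close relative of AF9, rose with c-kit by a smaller amount than Mllt3. Located on chromosome 17 (56892611 to 56935415, minus strand), it had 27.0, 25.4 and 29.2 TPM in WT c-kit-, 37.3, 33.1 and 32.9 TPM in WT c-kit+, while the labelled libraries had 33.6, 35.1 and 35.9 TPM. The log2 fold changes against WT c-kit- were 0.33 (SE 0.085, limma adjusted p = 0.0209) and 0.35 (SE 0.075, limma adjusted p = 0.00678). The first did not pass without WT c-kit- replicate 1 (limma adjusted p = 0.0590), without WT c-kit- replicate 2 (0.0702) or without WT c-kit+ replicate 1 (0.0721). Between the c-kit+ groups the difference was 0.019 (95% interval −0.15 to 0.19). The ratio of Mllt3 to Mllt1 within a library, which any scaling of the library leaves unchanged, was 0.767, 1.26 and 1.43 in WT c-kit-, 1.68, 1.66 and 1.84 in WT c-kit+, and 1.91, 1.65 and 1.90 in the labelled libraries. It was higher in each c-kit+ library than in any WT c-kit- library. The log2 difference was 0.63 in WT c-kit+ and 0.70 in the labelled libraries (exact two-sided permutation p = 0.1 for each, the smallest that 3 against 3 allow), and 0.075 between the c-kit+ groups (exact permutation p = 0.4). The first 2 values rest in part on WT c-kit- replicate 1, without which they were 0.36 and 0.43.

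DOT1L and AF10 work together, yet Dot1l and Mllt10 did not rise in the same groups. Dot1l, on chromosome 10 (80755206 to 80795461, plus strand), had 28.8, 26.3 and 25.7 TPM in WT c-kit-, 25.6, 28.1 and 26.3 TPM in WT c-kit+, while the labelled libraries had 33.1, 33.5 and 33.7 TPM. The WT groups overlapped and all 3 labelled libraries lay above them. Dot1l rose in the labelled libraries by a log2 fold change of 0.32 against WT c-kit+ (SE 0.062, limma adjusted p = 0.00656) and by 0.30 against WT c-kit- (SE 0.069, limma adjusted p = 0.00809). Relative to the median of all genes, the first value was 0.20. Between the WT groups the difference was −0.013 (95% interval −0.20 to 0.17), with a sign that changed with the scaling. Mllt10, on chromosome 2 (18055237 to 18212388, plus strand), had 43.2, 43.6 and 42.9 TPM in WT c-kit-, 51.5, 59.5 and 56.0 TPM in WT c-kit+, while the labelled libraries had 42.6, 52.4 and 39.8 TPM. It rose in WT c-kit+ by a log2 fold change of 0.36 (SE 0.069, limma adjusted p = 0.00661). In the labelled libraries, of which replicate 2 was the highest, its log2 difference was −0.31 from WT c-kit+ (95% interval −0.58 to −0.043, limma adjusted p = 0.0581) and 0.045 from WT c-kit- (95% interval −0.21 to 0.29). Without that replicate the first was −0.42 (limma adjusted p = 0.0112). Dnajc1 overlaps Mllt10 on the other strand, and Gm17151 overlaps Dot1l.

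The AFF scaffolds of the super elongation complex were the genes of the 9 with the largest differences between the c-kit+ groups, whereas Kmt2a and Mllt3 differed more from WT c-kit- in the labelled libraries. Aff1, on chromosome 5 (103692374 to 103855322, plus strand), had 25.3, 29.0 and 30.5 TPM in WT c-kit-, 61.2, 55.5 and 56.3 TPM in WT c-kit+, while the labelled libraries had 41.9, 42.1 and 41.9 TPM. The 3 groups did not overlap, with the labelled libraries between the WT groups. Aff1 rose in WT c-kit+ by a log2 fold change of 1.01 (SE 0.088, limma adjusted p = 0.000202), a ratio of means of 2.04. The labelled libraries were lower than WT c-kit+ by a log2 fold change of −0.45 (SE 0.059, limma adjusted p = 0.00138) and higher than WT c-kit- by 0.56 (SE 0.082, limma adjusted p = 0.00125). Aff4, on chromosome 11 (53350833 to 53421830, plus strand), had 17.3, 20.5 and 19.1 TPM in WT c-kit-, 15.8, 16.2 and 15.6 TPM in WT c-kit+, while the labelled libraries had 11.3, 9.84 and 13.2 TPM. Its groups did not overlap either, in the order WT c-kit-, WT c-kit+ and the labelled libraries. Aff4 fell by a log2 fold change of −0.45 between the c-kit+ groups (SE 0.11, limma adjusted p = 0.0168), which did not pass without labelled replicate 1 (0.0513), and by −0.69 against WT c-kit- (SE 0.12, limma adjusted p = 0.00318). The log2 difference between the WT groups was −0.24 (95% interval −0.45 to −0.031, limma adjusted p = 0.0669). It passed without WT c-kit- replicate 1 (−0.30, limma adjusted p = 0.0487) and shrank to −0.086 under quantile normalization (limma adjusted p = 0.459). Small RNA genes, among them Mir6920, lie within Aff4 on the same strand.

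The ratio of Aff1 to Aff4 within a library was 1.46, 1.41 and 1.60 in WT c-kit-, 3.86, 3.42 and 3.62 in WT c-kit+, and 3.70, 4.27 and 3.17 in the labelled libraries. It was 2.43-fold higher in WT c-kit+ and 2.47-fold higher in the labelled libraries than in WT c-kit-, with no overlap (log2 differences of 1.28 and 1.30, exact two-sided permutation p = 0.1 for each). Between the c-kit+ groups, where both genes were lower in the labelled libraries, the ratio overlapped and differed by 0.020 on the log2 scale (exact permutation p = 0.9).

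**Figure D3:**
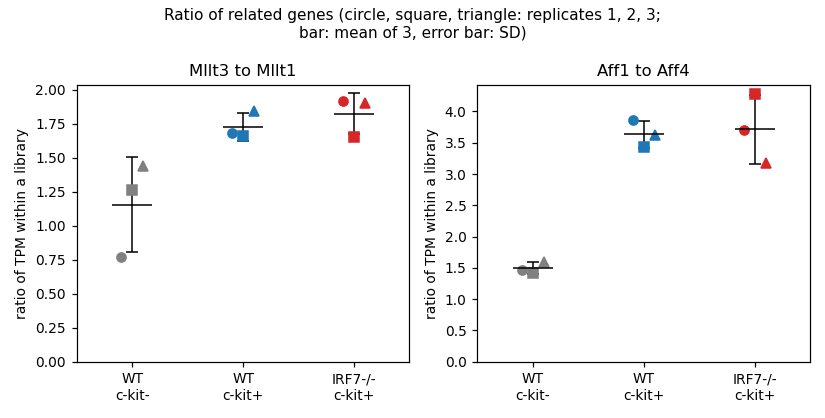
Ratio of TPM within a library (vertical axes, from 0) of Mllt3 to Mllt1 and of Aff1 to Aff4 in the 3 groups, with 1 point per library, a bar at the mean of 3 and error bars of 1 SD. The Aff1 to Aff4 ratio lies between 1.41 and 1.60 in WT c-kit- and between 3.17 and 4.27 in the c-kit+ libraries.

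Related genes were read from 4 lists of 46 genes, chosen with earlier results of these data known. Of these genes, 44 passed the filter of 1 TPM in at least 3 of the 6 libraries for WT c-kit+ against WT c-kit-, and 43 in each of the other comparisons. In the order of comparisons above, 4, 12 and 11 rose and 14, 8 and 16 fell, with median log2 fold changes of −0.093, 0.11 and −0.036 beside −0.082, 0.12 and 0.030 for all genes tested. In these comparisons 41.6%, 48.0% and 59.4% of all genes tested were called in either direction, so calls in a list are common, and the genes below are named by a rule and not because a list stands apart. Of the 44, 43 and 43 genes of the 4 lists, 40.9%, 46.5% and 62.8% were called, close to those shares. Single lists differed more, from 0% (PAF1 complex) to 73.3% (other fusion partners and AF9 binding proteins) in WT c-kit+ against WT c-kit-. Of the 11 subunits and relatives of the MLL methyltransferases, 3 rose and 1 fell in WT c-kit+ against WT c-kit-, or 36.4% called beside 41.6% of all genes. Dpy30 (log2 fold change 0.45, limma adjusted p = 0.00686) and Wdr5 (0.31, limma adjusted p = 0.00470), both of the core shared by these enzymes, rose, as did Tasp1 (0.39, limma adjusted p = 0.0366), the protease that cleaves MLL. Rbbp5, of the same core, fell (−0.32, limma adjusted p = 0.00802). Core subunits of 1 complex thus moved in opposite directions. The labelled libraries had 3 rises and 3 falls against WT c-kit+, or 54.5% called beside 48.0% of all genes. Kdm6a (−0.49, limma adjusted p = 0.00227), Kmt2c (−0.28, limma adjusted p = 0.0148) and Kmt2d (−0.26, limma adjusted p = 0.0209), which belong to the sister complexes of MLL at enhancers, were those that fell. Tasp1 (0.45, limma adjusted p = 0.0106), Wdr5 (0.31, limma adjusted p = 0.00290) and Hcfc1 (0.23, limma adjusted p = 0.0122) rose. Against WT c-kit-, 5 rose, led by Hcfc2 (0.85), Tasp1 (0.84) and Dpy30 (0.66), and 3 fell, Kdm6a (−0.64), Kmt2c (−0.35) and Rbbp5 (−0.21), with limma adjusted p between 0.000215 and 0.0408. That was 72.7% called beside 59.4% of all genes.

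Of the 14 genes of the super elongation complex and P-TEFb, 12 were tested, and Ell3 and Eaf2 were under the filter. In WT c-kit+ against WT c-kit- 1 rose and 2 fell, or 25% called beside 41.6% of all genes. Aff2, a relative of Aff1, had 0.59, 0.70 and 2.18 TPM in WT c-kit-, 8.59, 6.81 and 8.20 TPM in WT c-kit+, while the labelled libraries had 6.51, 4.95 and 6.40 TPM. It was low in all groups and rose by 2.11 on the log2 scale in WT c-kit+ (SE 0.28, limma adjusted p = 0.00127) and by 1.76 in the labelled libraries against WT c-kit- (limma adjusted p = 0.00188). Cdk9, the kinase of P-TEFb, was 183 to 195 TPM in WT c-kit- and 128 to 141 TPM in WT c-kit+, a fall of −0.49 (limma adjusted p = 0.000937), and its partner cyclin Ccnt2 fell by −0.22 (limma adjusted p = 0.0326). Of the same genes 3 rose and 2 fell between the c-kit+ groups, or 41.7% called beside 48.0% of all genes. Ell2, an elongation factor of the complex, was 0.92 to 1.43 TPM in WT c-kit+ and 4.45 to 5.34 TPM in the labelled libraries, a rise of 1.48 (SE 0.14, limma adjusted p = 0.000478). Its binding partner Eaf1 rose by 0.58 (limma adjusted p = 0.00236), and Larp7, which with Hexim1 keeps P-TEFb inactive, rose by 0.34 (limma adjusted p = 0.00407). Hexim1 was among those that fell (−0.63, limma adjusted p = 0.00369). Genes whose products keep P-TEFb inactive thus moved in opposite directions. Against WT c-kit- 4 rose, among them Aff2, Ell2 (0.94) and Eaf1 (0.71), and 5 fell, among them Hexim1 (−0.65) and Cdk9 (−0.35), with limma adjusted p between 0.000456 and 0.00401. That was 75% called beside 59.4% of all genes.

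The PAF1 complex, which binds MLL and travels with RNA polymerase II, had 6 genes tested. None passed between the WT groups by limma, beside 41.6% of all genes called there. Ctr9 alone (−0.25 on the log2 scale) was under 0.05 before adjustment. Leo1 (0.50, limma adjusted p = 0.00143), Wdr61 (0.37, limma adjusted p = 0.00309) and Ctr9 (0.34, limma adjusted p = 0.0153) rose in the labelled libraries against WT c-kit+, and Leo1 (0.64) and Wdr61 (0.49) against WT c-kit- (limma adjusted p = 0.000427 and 0.00420). The 3 of 6 called between the c-kit+ groups (50%) stand beside 48.0% of all genes, and the 2 of 6 against WT c-kit- (33.3%) beside 59.4%.

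Of 15 other fusion partners and AF9 binding proteins, 11 fell and none rose in WT c-kit+ against WT c-kit-, with a median log2 fold change of −0.58, beside 27.6% of all genes called lower and 14.0% higher. That was 73.3% called in either direction beside 41.6% of all genes, in a list chosen with earlier results of these data known. Of the 9 genes, the fusion partners Mllt3, Mllt1, Mllt10 and Aff1 rose there, and Aff4 differed by −0.24 without passing the test. Gas7, a cytoskeletal gene, had 34.7, 25.1 and 27.8 TPM in WT c-kit-, 6.87, 7.00 and 8.82 TPM in WT c-kit+, while the labelled libraries had 27.4, 26.6 and 31.5 TPM. It fell by −1.81 in WT c-kit+ (SE 0.15, limma adjusted p = 0.000161) and was higher by 1.79 in the labelled libraries (SE 0.12, limma adjusted p = 0.000115). Foxo3, a transcription factor, fell by −1.05 (limma adjusted p = 0.000124) and Mllt6, a relative of Mllt10, by −1.03 (limma adjusted p = 0.00198). For the labelled libraries against WT c-kit+ 14 were tested, since Tet1 was under the filter, and 3 rose and 3 fell, or 42.9% called beside 48.0% of all genes. Besides Gas7, the adhesion gene Afdn (1.25, limma adjusted p = 0.00102) and the septin Sept9 (0.27, limma adjusted p = 0.00662) rose. Cbl, a ubiquitin ligase that acts on receptors such as c-kit (−0.47, limma adjusted p = 0.00249), the acetyltransferase Crebbp (−0.34, limma adjusted p = 0.0175) and Eps15, which acts in endocytosis (−0.28, limma adjusted p = 0.0405), fell. Against WT c-kit- 8 of 14 fell and none rose, beside 28.7% of all genes called lower and 30.7% higher, led by Foxo3 (−1.15), Mllt6 (−1.13) and Eps15 (−0.99), with limma adjusted p between 9.09e-05 and 0.000227.

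**Figure D4:**
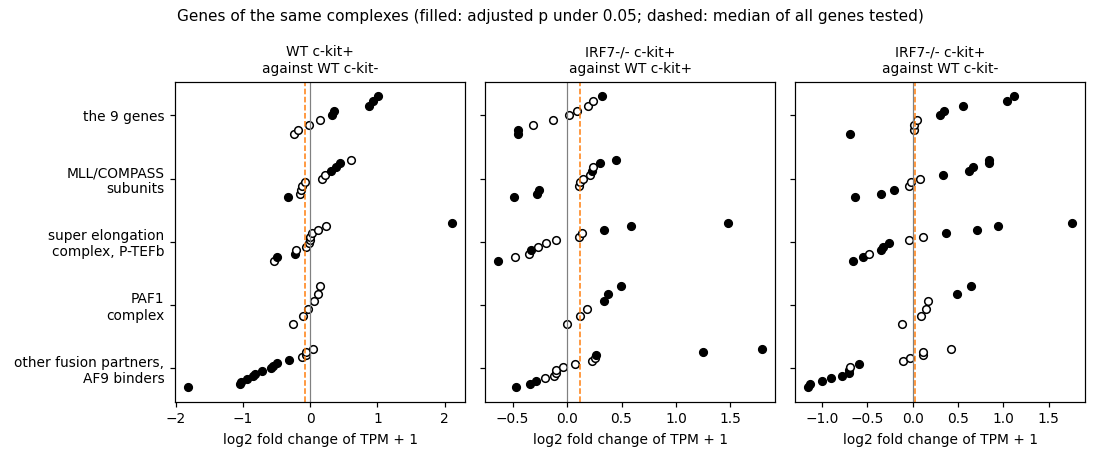
Log2 fold change of TPM + 1 (horizontal axes, with a scale for each panel) of the 9 genes and of the tested genes of the 4 lists, 1 point per gene, in the 3 comparisons; filled points have an adjusted p under 0.05, and the dashed line is the median of all genes tested. In the left panel the 11 filled points of the lowest row lie left of 0, while the 5 filled points of the top row lie right of it.

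Genes known to be activated by MLL-AF9 were read beside the machinery. Of 12, 4 rose and 4 fell in WT c-kit+ against WT c-kit-, 7 rose and 4 fell in the labelled libraries against WT c-kit+, and 6 rose and 3 fell against WT c-kit-. These are 66.7%, 91.7% and 75% called, beside 41.6%, 48.0% and 59.4% of all genes. The list was chosen with earlier results of these data known, so these shares cannot test whether the targets stand apart. Myb, a progenitor transcription factor, was 140 to 165 TPM in WT c-kit- and 423 to 459 TPM in WT c-kit+ (1.54 on the log2 scale, SE 0.076, limma adjusted p = 2.72e-05), and the cell cycle kinase Cdk6 rose by 0.85 (limma adjusted p = 0.000176). Both are thus higher in the group where Kmt2a, Mllt3 and Aff1 are higher, whereas Pbx3 (−1.08, limma adjusted p = 0.0199), Mef2c (−0.51, limma adjusted p = 0.00181) and Runx2 (−0.38, limma adjusted p = 0.0153) fell there. In the labelled libraries against WT c-kit+, Kmt2a and Mllt3 passed no test, while Dot1l rose and Aff1 and Aff4 fell. Among the targets, Pbx3 (2.91, limma adjusted p = 0.000548), Meis1 (0.58, limma adjusted p = 0.00187) and Jmjd1c (0.53, limma adjusted p = 0.00377) rose there. Mef2c (−3.07, limma adjusted p = 0.00700) and Runx2 (−0.60, limma adjusted p = 0.00999) fell. Whether the targets follow the machinery was not tested. Mecom, which rose by 0.82 in WT c-kit+ (limma adjusted p = 0.0246), was 32.9 to 34.5 TPM there and is listed at 0 in all 3 labelled libraries. Against WT c-kit-, the labelled libraries were higher in Pbx3 (1.83), Myb (1.76) and Hoxa10 (0.89), with limma adjusted p between 7.12e-06 and 0.00189. They were lower in Mecom (−4.30, limma adjusted p = 2.16e-05), Mef2c (−3.58, limma adjusted p = 0.00260) and Runx2 (−0.97, limma adjusted p = 0.000661).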

How the data were processed

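The authors sorted GFP+ mouse leukemia cells, prepared RNA libraries with the Illumina TruSeq RNA kit v2 and deposited 1 table of 55536 genes in 9 libraries. The paper's methods call the assay a microarray, while the labels describe RNA-seq. No header names the unit, and the deposited values were read as TPM because library totals ran narrowly from 987468 to 992231. The aligner, quantifier and genome build are not given in the sources used here. TPM are shares of a total, so that very abundant transcripts press down the rest of their library. The 10 highest genes held 13.1% to 17.3% of each WT c-kit+ library and 9.39% to 10.3% of the others.

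For every comparison limma was run on the 6 libraries involved (version 3.58.1 in R 4.3.3; lmFit, eBayes with trend) on log2(TPM + 1), keeping genes that reached 1 TPM in 3 or more libraries, with Benjamini-Hochberg adjustment over all genes tested. Fold changes are on that scale, which understates the change of low genes. Called genes had an adjusted p under 0.05, and a change of 1 or more on the log2 scale was asked separately. The script was tested on simulated data. Ratios within a library used a pseudocount of 0.1, and exact permutation tests were two-sided. Alternatives were no filter, a filter of 5 TPM, a pseudocount of 0.1 (for ratios 1), quantile normalization, median centring, all 9 libraries in 1 fit, the replicate number as a block, and each library left out.

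The members and lists were chosen with earlier results of these data known. From each list, up to 3 rises and 3 falls with the largest log2 fold change among called genes are named per comparison, with Irf7 and Kit as checks and, for Kmt2a and Mllt3, the 3 genes of highest Pearson's r. Cell markers are named as examples, for their part in a sum, or where they went against the sum of their list. A gene that this rule would name from the super elongation complex list is not reported here. Genes given to show a list's filter (Ell3, Eaf2 and Tet1) were named after their values were seen. Sept6 and Sept9, which the table lists as dates, were matched by gene identifier. Coordinates are those of GENCODE M21 (GRCm38), which held 55450 of the 55536 identifiers, and promoters are those of RefSeq (GRCm38.p6), the one nearest the start of the principal transcript. Tables were handled in pandas 2.3.3 and plots drawn in matplotlib 3.10.9, under Python 3.11.15.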

Additional observations from a re-analysis of the deposited data

How the results depend on the processing

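With 3 libraries a group and no depth in TPM, small differences that passed no test are given with their interval and not as absent. Of 522 values recomputed, 252 of them with 1 library left out, most kept their direction and side of the threshold. The 9 genes called in WT c-kit+ against WT c-kit- numbered 5, and 3 to 5 with a library left out (3 without WT c-kit+ replicate 1). Those past a log2 fold change of 1 numbered 1, but 3 under quantile normalization or median centring, and 0 to 3 with a library left out (0 without WT c-kit- replicate 1 or WT c-kit+ replicate 1, and 3 without WT c-kit- replicate 3). Of the 9 genes 3 were called between the c-kit+ groups, 5 under quantile normalization and with all 9 libraries in 1 fit, and 2 to 4 with a library left out. In the labelled libraries against WT c-kit- 2 passed a log2 fold change of 1, and 0 to 2 with a library left out (0 without WT c-kit- replicate 1 or labelled replicate 3). Counts of called genes over the 4 lists stayed within 1.5 times. The cause of each shift was not tested. Changes of sign were seen only in differences that passed no test. Dot1l between the WT groups became 0.14 under quantile normalization, 0.14 under median centring, 0.034 without WT c-kit- replicate 1 and 0.015 without WT c-kit+ replicate 1 (range −0.050 to 0.034 with a library left out). Mllt3 between the c-kit+ groups became −0.0093 under quantile normalization, and Mllt1 −0.075 under quantile normalization, −0.062 under median centring, and −0.0076, −0.011 and −0.0026 without WT c-kit+ replicates 2 or 3 or labelled replicate 3 (range −0.011 to 0.076). The log2 ratio of Aff1 to Aff4 there became −0.0023 with a pseudocount of 1, and −0.086 to 0.13 with a library left out (−0.022 without WT c-kit+ replicate 2). In the labelled libraries against WT c-kit-, Mllt10 became −0.069 without labelled replicate 2 (range −0.069 to 0.13), Men1 −0.040 without WT c-kit- replicate 3 (range −0.040 to 0.044), and Psip1 −0.062, −0.0087 and −0.018 without WT c-kit- replicate 3 or labelled replicates 1 or 2 (range −0.062 to 0.074).

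Replicate numbers were not taken to pair the libraries, since the labels name nothing that equal numbers share and not every pair correlated over 0.1. Deviations of same-numbered libraries correlated at −0.071 to 0.24 (9 pairs, median 0.053, 1 over 0.1), against a median of −0.034 for different numbers. With each library set against each other group in turn, 13 of 18 cases had the best correlation at the same number. Deviations were taken from the mean of each group, so values for same and different numbers are tied to each other. The 18 cases also reuse the same correlations. They are at most a hint from the data and not from the design, and pairing was not tested. With the replicate number as a block, 5, 4 and 6 of the 9 genes were called in the 3 comparisons, against 5, 3 and 6 without it, the addition being Mllt10 between the c-kit+ groups (limma adjusted p = 0.0361).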
